A study of Mus musculus with 13 samples.

Results

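The testis-specific serine kinases (TSSKs) are a small family of protein kinases made in male germ cells after meiosis. The 5 members named for this account, Tssk1, Tssk2, Tssk3, Tssk4 and Tssk6, were taken by gene symbol, and all 5 were present among the 25965 genes of the deposited table. RNA of whole testes was sequenced from mice aged 15 weeks, with the tunica removed. The labels give 6 libraries of Wfdc15a-/- mice (KO), 4 of Wfdc15a+/- heterozygotes (Het) and 3 of wild-type mice (WT). Het and WT together form the control group (n = 7), as in the design text, whose question is the role of Wfdc15a in making sperm. A second number in the titles, whose meaning is not stated, is 1 for KO replicates 1 to 3 and Het replicate 1 and 2 for the other libraries. No source used here gives the strain, the litters or the design of the knockout allele.

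Spermatids reshape from round cells into sperm, replace histones with protamines and build a tail, and TSSK proteins act in these steps. In mice, TSSK1 and TSSK2 bind the substrate TSKS and are needed together for sperm formation. TSSK4 acts on the tail protein ODF2, and TSSK6, with its co-chaperone TSACC, is needed for the packing of sperm DNA and for male fertility. TSSK3 is likewise a spermatid kinase that male mice need for fertility.

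In mm10, Tssk1 (chromosome 16, 17894203 to 17895651) and Tssk2 (chromosome 16, 17898637 to 17900023) lie head to tail on the plus strand with 2985 bases between them. Tssk3 lies on chromosome 4 (129489014 to 129491022, minus strand), Tssk4 on chromosome 14 (55650182 to 55652539, plus strand) and Tssk6 on chromosome 8 (69902184 to 69903516, plus strand). In GENCODE release M21, Tssk1, Tssk2 and Tssk6 have 1 exon each, Tssk3 has 2 and the Tssk4 transcript used for its length has 4. The coding sequences of Tssk1 and Tssk2 were identical at 81.4% of aligned bases, and the other 9 pairs at 61.2% to 65.3%. The transcripts of Tssk1 and Tssk2 shared 170 sequences of 31 bases, out of 1358 in Tssk2 and 3670 in the longer Tssk1 transcript of that annotation, and no other pair shared any. Reads from such stretches cannot be assigned to either gene with certainty. The longest of them, 113 bases within both coding regions at chr16:17894723-17894835 and chr16:17899105-17899217, is shown because it marks where the counts of this pair could mix:
Tssk1 and Tssk2, shared coding stretch: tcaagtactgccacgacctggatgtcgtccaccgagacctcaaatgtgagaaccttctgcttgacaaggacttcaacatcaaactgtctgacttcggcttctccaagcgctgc

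RefSeq gives a promoter window for all 5 members, from 250 bases before to 50 bases after the gene start that RefSeq gives (GRCm38.p6). This start is within 2 bases of the one in the deposited table for 4 members. For Tssk3 it lies 252 bases inside the table's span, at 129490770 against 129491022, so the whole Tssk3 window lies inside the gene as the table and GENCODE have it, and it is not shown. The window of Tssk6, whose RNA fell furthest, and those of the neighbours Tssk2 and Tssk1 are shown. The whole Tssk6 window also lies inside the table's spans of Ndufa13 (69894188 to 69902558) and Yjefn3 (69887788 to 69902712), genes of the opposite strand. The Tssk1 window begins inside the table's span of Dgcr2, an opposite-strand gene that reaches to 17894145. Capitals in Tssk6 mark matches on either strand to TGACG and to the sequence GGGCGG. Capitals in Tssk2 and Tssk1 mark GACAGTGCTGA, the longest run that both windows share, which was looked for after the sequences were seen.
Tssk6, chr8:69901934-69902233, plus strand: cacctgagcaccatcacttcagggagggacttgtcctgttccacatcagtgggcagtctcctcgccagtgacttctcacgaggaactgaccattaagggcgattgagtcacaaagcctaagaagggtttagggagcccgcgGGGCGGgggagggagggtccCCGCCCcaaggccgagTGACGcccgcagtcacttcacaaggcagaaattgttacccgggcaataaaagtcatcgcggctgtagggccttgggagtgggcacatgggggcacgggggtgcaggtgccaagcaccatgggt
Tssk2, chr16:17898387-17898686, plus strand: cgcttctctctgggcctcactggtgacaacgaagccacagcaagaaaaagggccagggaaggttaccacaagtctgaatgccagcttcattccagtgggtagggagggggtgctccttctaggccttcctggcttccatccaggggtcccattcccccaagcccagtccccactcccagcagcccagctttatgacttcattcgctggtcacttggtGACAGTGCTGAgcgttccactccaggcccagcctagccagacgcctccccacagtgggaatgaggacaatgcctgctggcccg
Tssk1, chr16:17893953-17894252, plus strand: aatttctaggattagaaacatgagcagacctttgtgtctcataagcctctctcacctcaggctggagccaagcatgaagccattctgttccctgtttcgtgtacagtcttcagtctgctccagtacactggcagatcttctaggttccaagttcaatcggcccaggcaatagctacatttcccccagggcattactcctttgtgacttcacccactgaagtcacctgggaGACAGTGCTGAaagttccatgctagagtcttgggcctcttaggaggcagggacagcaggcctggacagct

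Of the 6 motifs searched on both strands, none was in more than 2 of the 5 windows. TGACG, part of the cAMP response element to which CREM binds, was in the Tssk6 window only, against 20.8% of the 32851 RefSeq windows of the same length, and TGACGTCA, which contains it, was in none (1.79%). CCAAT was in the Tssk4 window and in that of Tssk3, where the match lies inside the table's gene span (37.4% of all windows). GGGCGG was in the Tssk6 window, once on each strand (35.7%). TATAAA (13.6%) and GTTGCC (12.5%) were in none. The run of 11 bases shared by Tssk1 and Tssk2 begins 20 bases before the start of Tssk1 and 33 bases before that of Tssk2, and 6 of the 32851 windows hold it. Pairs on different chromosomes shared runs nearly as long. The longest run was 10 bases for Tssk1 and Tssk4 (in 45 windows) and for Tssk3 and Tssk4 (in 38 windows). These matches describe the letters of the windows.

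Depth was 4222510 to 8226622 reads on genes in the libraries labelled KO, against 5636798 to 10054384 reads in the controls. Levels below are in RPM, the reads of a gene per 1000000 reads of its library. Wfdc15a, the targeted gene, was still read in every library labelled KO, at 44.6 ± 21.8 RPM (SD, n = 6) and 65.5 ± 12.5 RPM in the controls (n = 7, log2 -0.66, adjusted p = 0.0348), and KO replicate 6 held 81.3 RPM, above the control mean. The KO libraries of title number 1 held 28.1 ± 7.60 RPM (at most 33.4, below every control) and those of number 2 held 61.2 ± 17.7 RPM (48.1 to 81.3, overlapping the controls). The libraries are therefore named by their label. Of 16235 genes tested with limma 3997 passed (24.6%), of which 2994 were higher (18.4% of those tested) and 1003 lower (6.18%) in the libraries labelled KO at an adjusted p under 0.05. With median-of-ratios scaling 1712 were higher and 1716 lower, and with quantile normalization 1460 and 1532. The median log2 fold change of all tested genes was 0.16 as reported, 0.02 with median-of-ratios scaling and -0.01 with quantile normalization. All 5 Tssk members keep a negative sign under these 3 scalings.

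Tssk RNA fell in the libraries labelled KO, by very different amounts from member to member. Of the 5 members 4 fell and none rose, where 6.18% of all tested genes fell. The median log2 fold change of the 5 was -0.61, against 0.16 for all tested genes. Tssk6 fell most, then Tssk3, Tssk2 and Tssk1, and Tssk4 did not pass the test. Tssk6, Tssk3 and Tssk2 were lower in every library labelled KO than in every control, which held for 2.89% of all tested genes. Whole testis was measured, so fewer spermatids and less RNA per spermatid cannot be told apart.

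**Figure D1:**
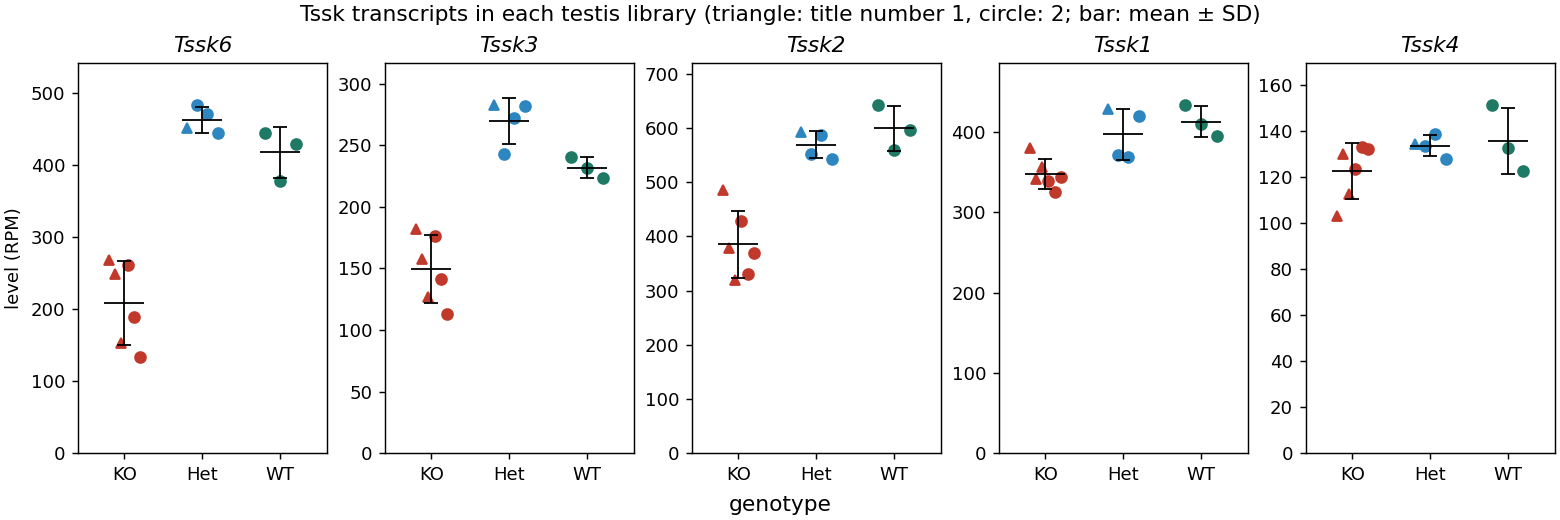
Level of each Tssk transcript (RPM, vertical axis) in each library, by genotype (KO, Het, WT). Triangles are libraries of title number 1 and circles those of number 2, and bars give the mean ± SD. The KO libraries of Tssk6 (134 to 269 RPM) lie below all controls (378 to 484 RPM), while those of Tssk4 (103 to 133 RPM) overlap the controls (123 to 151 RPM).

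Tssk6, the kinase needed for sperm chromatin packing, stood at 269, 248, 153, 262, 189 and 134 RPM in replicates 1 to 6 labelled KO. It stood at 452, 484, 471 and 444 RPM in Het replicates 1 to 4 and at 445, 378 and 429.9 RPM in WT replicates 1 to 3. The groups did not overlap, and replicates 3 and 6 labelled KO were lowest. The mean was 209 ± 58.4 RPM in the libraries labelled KO (n = 6) and 443 ± 33.8 RPM in the controls (n = 7), a 2.18-fold lower level (log2 -1.13, SE 0.134, adjusted p = 8.31e-06). The spread was also wider, with a coefficient of variation of 27.9% in the libraries labelled KO and 7.63% in the controls. In the order of log2 fold change, from the most negative, Tssk6 was at place 51 of 16235 tested genes.

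Tssk6 overlaps 2 genes of the opposite strand in the table, Ndufa13, a subunit of respiratory complex I, over 375 bases, and Yjefn3 over 529 bases. In GENCODE exons the overlaps are 375 and 15 bases. Ndufa13 also fell, to 129 ± 15.5 RPM in the libraries labelled KO against 204 ± 20.6 RPM in the controls (log2 -0.66, adjusted p = 3.63e-05), and so did Yjefn3 (log2 -0.75, adjusted p = 1.06e-05). Whether the counts used strand is not known, so reads of the first part of Tssk6 cannot be told apart from those of Ndufa13. The log2 changes of both neighbours are smaller than that of Tssk6, and the part of shared reads in them was not tested.

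Tssk3, a kinase of spermatids, ranged from 113 to 182 RPM in the libraries labelled KO (median 149.9) and from 224 to 283 RPM in the controls (median 243). All 6 lay below all 7 controls, a 1.71-fold lower level (log2 -0.77, SE 0.106, adjusted p = 3.01e-05). The gene whose table span comes closest to it, 1700125D06Rik, begins 167 bases away on the other strand and fell as well (log2 -0.56, adjusted p = 0.00325).

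Tssk2 ranged from 320.3 to 485 RPM in the libraries labelled KO (median 373) and from 544 to 643 RPM in the controls (median 588). The ranges again did not overlap, and the level was 1.52-fold lower (log2 -0.61, SE 0.0863, adjusted p = 4.47e-05). Its neighbour Tssk1 moved much less. It ranged from 325 to 381 RPM in the libraries labelled KO (median 343) and from 369 to 434 RPM in the controls (median 409.9), with 5 of the 6 libraries labelled KO below all controls. The level of Tssk1 was 1.16-fold lower (log2 -0.21, SE 0.0670, adjusted p = 0.0235). This call ended with quantile normalization (log2 -0.12, adjusted p = 0.190), without Het replicate 1 (-0.20, 0.0518), without KO replicate 5 (-0.19, 0.0571) and with some uses of the title number.

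Tssk4, the kinase that acts on ODF2, ranged from 103 to 133 RPM in the libraries labelled KO (median 127) and from 123 to 151 RPM in the controls (median 133). The groups overlapped, and the log2 difference was -0.14 (95% confidence interval -0.31 to 0.04, adjusted p = 0.248). With median-of-ratios scaling it was -0.29 and passed (adjusted p = 0.0181). KO replicate 1, which held the most Tssk6, Tssk3, Tssk2 and Tssk1 among the libraries labelled KO, held the least Tssk4 (103 RPM). Tssk4 was also the least read member, with 556 to 1494 reads per library. How many of these reads are PCR copies is not known.

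Against Het alone Tssk6 (log2 -1.19), Tssk3 (-0.86) and Tssk2 (-0.58) fell, 3 of 5 members, where 22.1% of tested genes passed and 5.15% fell. Against WT alone the same 3 members fell, at -1.04, -0.65 and -0.65, where 9.39% of tested genes passed and 3.34% fell. Tssk1 did not pass against either alone (log2 -0.19, adjusted p = 0.0943 against Het and -0.25, adjusted p = 0.0766 against WT). These comparisons share the libraries labelled KO. Between Het and WT no member passed and none of all tested genes did with limma (0% called, 957 genes at an unadjusted p under 0.05) or with limma-voom (0 called, 868 at an unadjusted p under 0.05). The widest member difference there was that of Tssk3, at 269.99 ± 18.8 RPM in Het (n = 4) and 232 ± 8.53 RPM in WT (n = 3), which is 0.22 on the log2 scale (95% confidence interval -0.08 to 0.51, adjusted p = 0.925).

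**Figure D2:**
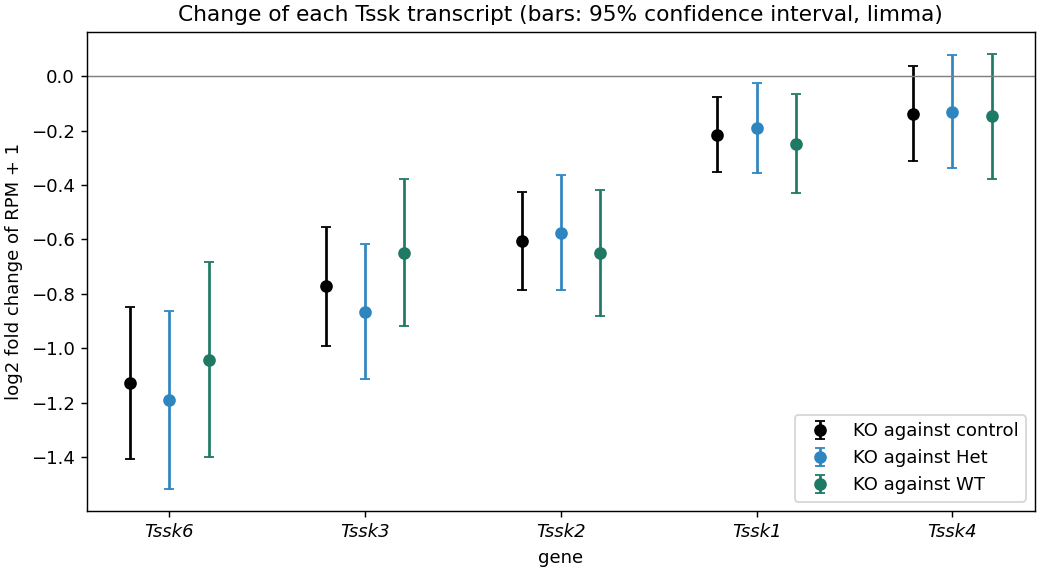
Log2 fold change of RPM + 1 (vertical axis) of each Tssk transcript in the libraries labelled KO against all controls, against Het and against WT, with 95% confidence intervals from limma. The order from Tssk6 (-1.13) to Tssk4 (-0.14) is that against all controls.

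No member passed the direct test between the KO libraries of title numbers 2 and 1, in which 0.345% of all tested genes were called (0.154% higher and 0.191% lower). The log2 differences (number 2 minus number 1) were -0.21 for Tssk6 (95% confidence interval -0.61 to 0.20), -0.12 for Tssk3, -0.06 for Tssk2, -0.10 for Tssk1 and 0.17 for Tssk4 (-0.08 to 0.43), with adjusted p of 0.599 to 0.910. Within the libraries of number 2 alone, 3 labelled KO against 6 controls, Tssk6 fell by 1.23, Tssk3 by 0.81 and Tssk2 by 0.63 on the log2 scale (adjusted p of 4.92e-05, 0.000561 and 0.000441). In the same libraries Tssk1 was at -0.25 (adjusted p = 0.0886) and Tssk4 at -0.05 (0.805). Number 1 holds a single control library, so it gives no value of its own.

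Whether members differ in their change was tested on the log2 ratio of a pair within each library, where library scaling cancels out. The 10 pairs were compared by a two-sided exact permutation test (1716 ways to place 6 of 13 libraries), and 8 passed after adjustment over the 10. The ratio of Tssk6 to Tssk1 averaged -0.78 ± 0.42 in the libraries labelled KO (SD, n = 6) and 0.13 ± 0.18 in the controls (n = 7), a difference of -0.91 (95% interval by inversion of the test -1.30 to -0.54). Its exact p of 0.000583 is the smallest that the test can give (adjusted p = 0.000971), and all 6 libraries labelled KO lay outside the range of the controls.

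The ratios of Tssk6 to Tssk3 (difference -0.35), to Tssk2 (-0.52) and to Tssk4 (-0.99) gave the same exact p. So Tssk6 fell more than each of the other 4 members. The adjacent pair also parted, with a ratio of Tssk2 to Tssk1 of 0.13 ± 0.19 in the libraries labelled KO and 0.53 ± 0.10 in the controls (difference -0.39, interval -0.58 to -0.22, same exact p). Tssk3 fell more than Tssk1 (-0.56) and Tssk4 (-0.64), and Tssk2 more than Tssk4 (-0.47). The 2 pairs that did not pass were Tssk3 over Tssk2 (-0.17, interval -0.39 to 0.05, exact p = 0.120) and Tssk1 over Tssk4 (-0.08, interval -0.28 to 0.14, exact p = 0.435). Of the 6 libraries labelled KO, 1 lay outside the range of the controls for Tssk3 over Tssk2. For Tssk1 over Tssk4 it was 4, on both sides (1.28 to 1.88, against 1.41 to 1.71 in the controls).

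**Figure D3:**
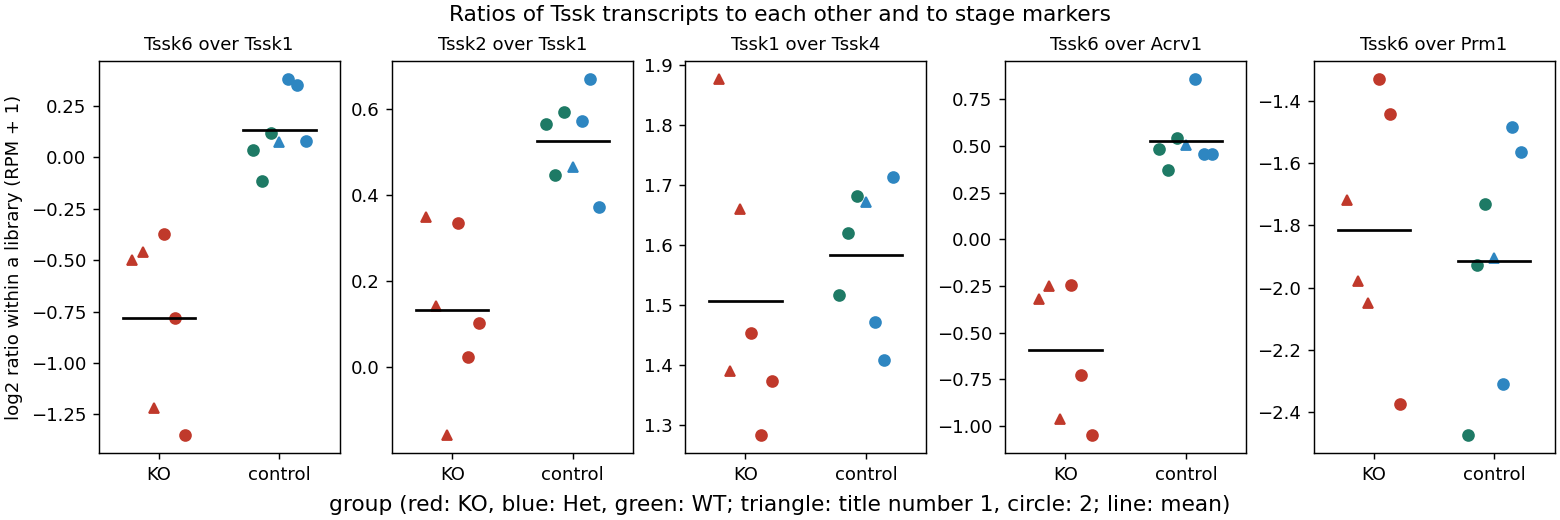
Log2 ratio within a library (vertical axis, RPM + 1) of pairs of Tssk transcripts and of Tssk6 to the stage markers Acrv1 and Prm1, in the libraries labelled KO and in the controls. Each point is a library and the line is the mean. Tssk6 over Tssk1 separates the groups (means -0.78 and 0.13), and Tssk6 over Prm1 overlaps between them (means -1.82 and -1.91).

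The members were also set against a gene of round spermatids, Acrv1, whose product lies in the acrosome, and a gene of late spermatids, Prm1, which codes for a protamine. Both were chosen with earlier results of these data known, so the ratios restate the changes above beside those of the markers. Their p-values are no further support. Acrv1 averaged 306 ± 19.2 RPM in the libraries labelled KO and 308 ± 25.1 RPM in the controls, and Prm1 730.1 ± 172 RPM and 1726 ± 505 RPM. Relative to Acrv1, Tssk6 (log2 difference -1.12), Tssk3 (-0.76), Tssk2 (-0.60) and Tssk1 (-0.21) were lower in the libraries labelled KO, with exact p of 0.000583 for the first 3 and 0.0122 for Tssk1. Tssk4 over Acrv1 differed by -0.13 (interval -0.35 to 0.07, exact p = 0.213).

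Relative to Prm1, Tssk4 (1.09), Tssk1 (1.01) and Tssk2 (0.62) were higher in the libraries labelled KO, with exact p of 0.000583 for Tssk4 and Tssk1 and 0.00583 for Tssk2. Tssk3 over Prm1 differed by 0.45 (interval -0.04 to 0.95, exact p = 0.0734) and Tssk6 over Prm1 by 0.10 (interval -0.38 to 0.58, exact p = 0.641). Of these 10 ratios 7 passed after adjustment over the 10. Prm1 had a log2 fold change of -1.22, where the 11 late spermatid genes listed below had -1.28 to -0.73. The differences relative to Prm1 therefore depend on this marker, and the other late spermatid genes were not tested in its place.

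Levels can be compared between members only per length, so RPM was divided by the exon length in kilobases. The order in the libraries labelled KO was Tssk2 (278 ± 44.9), Tssk1 (240.2 ± 13.1), Tssk6 (157 ± 43.8), Tssk3 (117 ± 21.5) and Tssk4 (86.1 ± 8.59 RPM per kilobase, SD, n = 6). In the controls it was Tssk2 (419.6 ± 24.5), Tssk6 (333 ± 25.4), Tssk1 (279 ± 18.2), Tssk3 (198 ± 19.4) and Tssk4 (94.6 ± 6.35 RPM per kilobase, n = 7). On these lengths Tssk6 stood below Tssk1 in the libraries labelled KO and above it in the controls. In the libraries labelled KO the ranges of each neighbouring pair in this order overlapped except Tssk1 and Tssk6, and in the controls only those of Tssk6 and Tssk1 did. The place of Tssk1 depends on its length, which was taken from the table. The GENCODE transcript of Tssk1 runs to 17897922, beyond the end of the table's span at 17895651. The deposited counts may leave out reads from that part. With GENCODE lengths, a choice added after the data were seen, Tssk1 has 3700 bases and stood at 94.1 ± 5.14 RPM per kilobase in the libraries labelled KO and 109 ± 7.14 in the controls. Tssk6 then lay above Tssk1 in all 6 and all 7 libraries, so the order of these members was the same in both groups.

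With the table's length of Tssk1, the summed level of the 5 was 878 ± 106 RPM per kilobase in the libraries labelled KO and 1324 ± 51.9 in the controls. Tssk6 made up 17.6% ± 3.17 of this sum in the libraries labelled KO and 25.1% ± 1.63 in the controls. Tssk1 made up 27.6% ± 2.97 in the libraries labelled KO and 21.1% ± 1.30 in the controls, and Tssk2 made up 31.6% ± 2.05 in the libraries labelled KO and 31.7% ± 1.43 in the controls. With GENCODE lengths the sum was 731 ± 102 RPM per kilobase in the libraries labelled KO and 1154 ± 48.4 in the controls. On these lengths the share of Tssk6 was 21.1% ± 3.42 in the libraries labelled KO and 28.8% ± 1.65 in the controls, and that of Tssk1 was 13.04% ± 1.70 in the libraries labelled KO and 9.48% ± 0.666 in the controls.

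**Figure D4:**
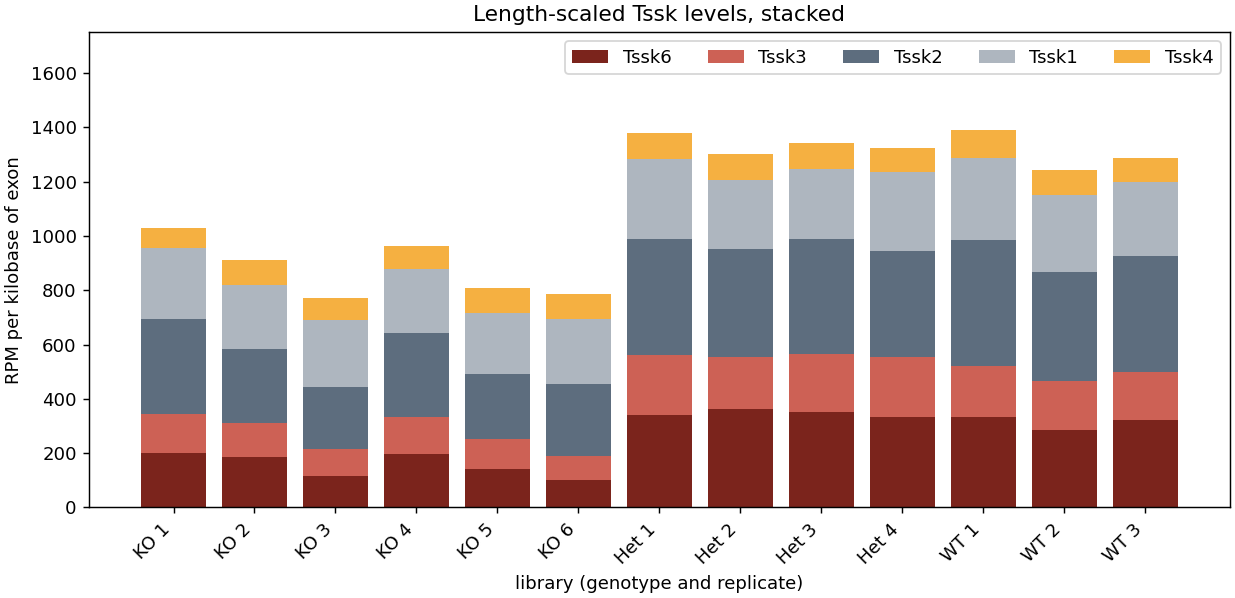
RPM per kilobase of exon (vertical axis, table length for Tssk1) of the 5 Tssk members, stacked, in each library by genotype and replicate. The sum is 770.2 to 1029 in the libraries labelled KO and 1244 to 1392 in the controls.

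Partners of the kinases moved in part. Of 9 listed genes whose products bind, activate or are acted on by TSSK proteins, 4 fell and none rose, where 6.18% of all tested genes fell and 18.4% rose, and their median log2 fold change was 0.00. Tsks, which codes for the substrate of TSSK1 and TSSK2, averaged 343 ± 34.2 RPM in the libraries labelled KO and 546 ± 33.0 RPM in the controls (log2 -0.68, SE 0.0729, adjusted p = 3.36e-06). The groups did not overlap. The gene of the TSSK6 co-chaperone TSACC, in the table as 1700021C14Rik, averaged 129 ± 13.7 RPM and 196 ± 46.6 RPM (log2 -0.58, SE 0.124, adjusted p = 0.00193), with 5 of 6 libraries labelled KO below all controls.

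Odf2, the outer dense fibre gene whose product TSSK4 acts on, averaged 2932 ± 217 RPM in the libraries labelled KO and 4186 ± 209 RPM in the controls (log2 -0.52, adjusted p = 6.23e-06). Pdpk1, a kinase that can act upstream of TSSK3, fell by 0.33 on the log2 scale (adjusted p = 0.0166). The other 5 did not pass. Crem, a transcription factor of spermatid genes, averaged 315 ± 24.9 RPM in the libraries labelled KO and 315 ± 17.1 RPM in the controls (log2 0.00, 95% confidence interval -0.15 to 0.15). Ppp1cc, a phosphatase that can bind TSKS, was at log2 0.03, H2afx, the histone H2AX gene, at 0.23, and the chaperone genes Hsp90aa1 and Hspa2 at 0.11 and 0.12.

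A list of other kinases, chosen as kinases of germ cells after meiosis, showed no common direction. Whether its genes are read mainly in such cells was not tested. Of 20 listed, 19 were tested, of which 2 fell and 2 rose, where 6.18% and 18.4% of all tested genes did, with a median log2 fold change of -0.07. Camk4, a calmodulin kinase of spermatids, averaged 64.0 ± 8.33 RPM in the libraries labelled KO and 87.2 ± 9.09 RPM in the controls (log2 -0.44, adjusted p = 0.00361). Ttbk1 fell (log2 -0.55, adjusted p = 0.0275), and Stk31 rose (0.34, adjusted p = 0.0279).

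Marker lists of testis cells moved in different directions, to be read against the 6.18% of all tested genes that fell and the 18.4% that rose. All 11 late spermatid genes fell (median log2 -1.07, summed level 5763 to 9120.5 RPM in the libraries labelled KO and 13804 to 18295 RPM in the controls). Of 8 round spermatid genes 1 fell (median -0.07), and their summed level was 1981 to 2177 RPM in the libraries labelled KO and 2055 to 2253 RPM in the controls. Of 7 spermatocyte genes, which include Hspa2 of the partner list, 1 fell (median 0.12, summed level 8202 to 9255 RPM in the libraries labelled KO and 8577 to 9970 RPM in the controls). All 5 Leydig cell genes, 4 of 6 Sertoli cell genes and 4 of 5 macrophage genes rose, with summed levels of 5457 to 9476, 2271 to 3612 and 102 to 248 RPM in the libraries labelled KO and 2239 to 4109, 1259 to 2121 and 55.5 to 93.2 RPM in the controls. Single genes carried most of some sums. Clu held 2822 of a mean Sertoli sum of 3041 RPM in the libraries labelled KO, and 1403 of 1521 RPM in the controls. Ldhc held 5948 of a mean spermatocyte sum of 8606 RPM in the libraries labelled KO, and 6287 of 9107 RPM in the controls. The late spermatid sum was lowest in KO replicates 6, 5 and 3, the 3 libraries that also held the least Tssk6 and Tssk3. No gene of these lists was at 0 in any library, and the part of cell make-up in the Tssk values was not tested.

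**Figure D5:**
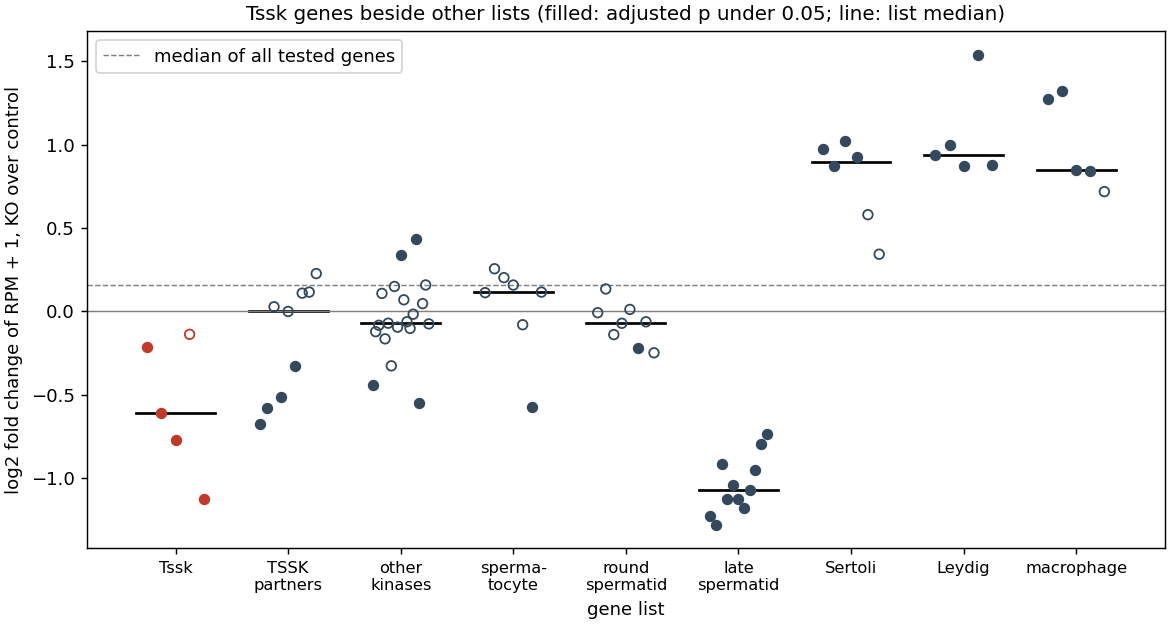
Log2 fold change of RPM + 1 (vertical axis), KO over control, of the Tssk genes and of 8 other gene lists. Each point is a gene, filled where its adjusted p is under 0.05, and the line is the list's median. The Tssk genes (-1.13 to -0.14) spread from the level of the late spermatid list (median -1.07) to that of the round spermatid list (median -0.07).

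The genes whose course over the 13 libraries lay nearest to each member were found among 8731 genes of at least 10 RPM. Genes with Gm, Rik, LOC, mt- or accession-like names were left out. The measure was the root mean square difference of log2(RPM + 1) after removal of each gene's mean. For Tssk6 the nearest genes were Car2, a carbonic anhydrase gene (difference 0.10, log2 fold change -1.23), Lrrc57 (0.11, -1.12) and Hoga1 (0.13, -0.98). For Tssk3 they were Bcl2l14, Gsg1 and Lrrc8b, at differences of 0.08 to 0.09. Tssk2 was nearest to Dlgap4, Tmem53 and Tcp11 (0.09 to 0.11), Tssk1 to Trim42, Tcte2 and Pcmt1 (0.07 for each), and Tssk4 to Acrbp, the proacrosin binding protein gene, Fam50b and Sept12 (0.07 to 0.08). The members themselves were left out of these candidates. Between members, the closest members were Tssk1 and Tssk4 (0.16) and Tssk2 and Tssk3 (0.18), and the adjacent genes Tssk1 and Tssk2 were 0.24 apart. Many other genes lay nearer. Set among the candidates, Tssk4 would take place 424 from Tssk1, and Tssk3 would take place 95 from Tssk2. The nearest place of any member was that of Tssk3 from Tssk6, at 28 (difference 0.22), while Tssk6 would take place 166 from Tssk3.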

How the data were processed

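Per the labels, about 2 ng of total RNA from whole testis went into each Smart-seq2 library with 11 cycles of PCR. Per the submitters' processing notes, reads were handled with Trim Galore 0.6.6 and FastQC 0.11.8 on build mm10. For aligner, counter and strandedness: not given in the sources used here. The authors deposited log2 RPM values for 25965 genes in 13 libraries.

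Genes without reads hold the value of 0.9 read. The deposited log2 values of other genes were whole reads in at least 99.96% of cases per library (within 0.01 read), at 0.0899 to 0.222 RPM per read. Genes without reads were set to 0. PCR copies are not independent molecules.

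limma 3.58.1 (R 4.3.3, mean-variance trend, two-sided, Benjamini-Hochberg) was fitted to log2(RPM + 1) over the 16235 genes of at least 1 RPM on average. A gene is called at an adjusted p under 0.05. A model of 3 genotypes gave the comparisons with Het or WT alone, and one of 4 groups compared the title numbers. The unit is log2, so limma-voom on the recovered reads was an alternative. Other alternatives were the pseudocount, the filter, the scaling, the title number, replicate number as block and leaving out each library.

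The labels' design text counts mice, so each library was taken as a mouse. If some are not, p-values measure only the spread between these libraries. The members, lists and tests were chosen with earlier results of these data known. The text names all members, the partner list, the 3 kinases of lowest adjusted p, the 3 genes nearest to each member and the genes beside members. Symbols of 5 listed genes were matched through RefSeq synonyms. Sequences are from RefSeq (GRCm38.p6) and GENCODE M21, both of the mm10 assembly. The fit was also run on simulated counts, with the same setting of spread for every gene. No result here rests on that run.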

Additional observations from a re-analysis of the deposited data

How the results depend on the processing

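Tssk6, Tssk3 and Tssk2 stayed lower and called in KO against control under all 25 alternatives, at log2 -1.28 to -0.97, -0.92 to -0.68 and -0.76 to -0.47. Tssk1 and Tssk4 kept their sign, at -0.37 to -0.12 and -0.29 to -0.05. The call of Tssk1 was lost with quantile normalization (-0.12), with replicate number as block (-0.19, adjusted p = 0.0705), with KO libraries of title number 1 only (-0.17, adjusted p = 0.161) and with title number 2 only (-0.25). Leaving out each library gave Tssk1 -0.24 to -0.19. Tssk4 passed only with median-of-ratios scaling (-0.29). The causes were not tested. The deviations of same-numbered libraries correlated at -0.08 to 0.13. Libraries of different numbers were not compared, so this does not settle whether replicate numbers pair the libraries. The block did not move the count of calls in KO against control by over 1.5 times (3830 genes, against 3997).

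Fewer genes were called in KO against control with KO title number 2 only (1938) and with title number 2 only (1554), while KO title number 1 only, with as many libraries as KO number 2 only, gave 3601, and the cause was not tested. The count was 3262 to 3997 when a library was left out. Leaving out a library gave 454 to 1737 genes in KO against WT, 2666 to 3590 in KO against Het, 0 to 3 in Het against WT and 11 to 114 between the KO libraries of the title numbers, where 56 were called as reported and leaving out any KO library or Het replicate 1 moved the count by over 1.5 times. KO against WT fell to 454 without WT replicate 1 and 936 without WT replicate 2, against 1525 with all, and Tssk6, Tssk3 and Tssk2 stayed called. Between title numbers 20 genes were called without a filter and 0 with the replicate block (891 at an unadjusted p under 0.05), and no member under any alternative. Against Het, median-of-ratios scaling also called Tssk1 (-0.36) and Tssk4 (-0.30), and against WT it called Tssk1 (-0.37).

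Of the 10 member pairs 8 passed under every alternative but the block (6), and of the 10 ratios to stage markers 7 passed except with the block (5) and title number 2 only (6). Leaving out a library changed neither count. The block allows 54 arrangements, so its smallest p is 0.0185. The members held 556 reads or more in every library, PCR copies included.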

Other observations

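Tssk5, a further gene of the family that was not among the members, was read at a far lower level. It averaged 8.04 ± 4.69 RPM in the libraries labelled KO (n = 6, 1.40 to 15.2 RPM) and 4.91 ± 1.77 RPM in the controls (n = 7, 2.53 to 7.57 RPM). The log2 difference was 0.46 (95% confidence interval -0.24 to 1.16, adjusted p = 0.344), with 10 to 100 reads per library, so the interval is wide.

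Pskh1, on the list of other kinases but outside its 3 lowest adjusted p, was named after its values were seen because it rose. It averaged 32.8 ± 7.92 RPM in the libraries labelled KO and 23.8 ± 3.90 RPM in the controls (log2 0.43, adjusted p = 0.0415). Dgcr2, whose GENCODE exons overlap those of Tssk1 over 63 bases on the other strand, averaged 183 ± 22.9 RPM in the libraries labelled KO and 203 ± 18.7 RPM in the controls (log2 -0.15, adjusted p = 0.211).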
